A study of Mus musculus with 4 samples.

Results

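The genes described here are 8 transcription factors of the epidermis. Their transcripts were counted by RNA sequencing in MK1 and MK2, which are lines of mouse keratinocytes. They are the Grainyhead-like factors Grhl1, Grhl2 and Grhl3, the Ovo-like zinc-finger factors Ovol1 and Ovol2, the zinc-finger factor Zfp750 (the mouse counterpart of human ZNF750), and the AP-2 factors Tfap2a and Tfap2c. They were chosen by gene name from the 23420 gene rows of the deposited count table, where each of the 8 had 1 row. Each line was sequenced as 2 biological replicate cultures, giving 4 libraries of total RNA that held 25237391 to 30261111 counts. No genotype, strain, sex, age, passage or treatment is given in the sources used here for either line, and keratinocyte is the only cell type named. MK2 was compared with MK1, and every log2 fold change is MK2 minus MK1. Each group was 1 line, so a p-value here reflects how far cultures of 1 line vary, and says nothing of other keratinocyte lines. In such bulk samples, fewer cells with a transcript and less of it per cell cannot be told apart.

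Keratinocytes leave the basal layer, stop dividing and build the cornified barrier under the control of p63, the master regulator of stratified epithelia. Grainyhead-like factors activate genes of epithelial junctions and of the barrier, with Grhl3 needed for barrier formation and Grhl2 for epithelial identity. Ovo-like factors restrain progenitor growth and repress mesenchymal regulators such as Zeb1. Zfp750 acts downstream of p63, switches on the late differentiation programme and can recruit the corepressors Kdm1a, Rcor1, Ctbp1 and Ctbp2. AP-2 factors bind many epidermal enhancers and promoters, including those of the basal keratins Krt5 and Krt14.

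The labelled cell type was checked against marker lists. The 7 basal keratinocyte markers, mostly Krt5 and Krt14, summed to 18020 to 21710 CPM (read counts per 1e6 of the scaled library) in the 4 libraries. Within this list Krt15 was uneven between the MK2 cultures, at 27.9 and 0.247 CPM. Col17a1 had a log2 fold change of -1.06 and Itga6 of 0.83, both called in the test below, and the other basal markers were not called. Fibroblast markers summed to 0.636 to 3.52 CPM, with 7 of 8 below 1 CPM in every library and Pdgfrb, Dcn and Lum at 0 counts. Markers of simple epithelium summed to 3784 and 3923 CPM in MK1 and to 29.5 and 35.7 CPM in MK2, with 1 of 5 below 1 CPM in every library and none at 0 throughout. Leukocyte markers summed to 28.9 and 29.8 CPM in MK1 and to 0.176 and 0.318 CPM in MK2, with 2 of 8 below 1 CPM in every library. Merkel cell and neural crest markers, mostly Krt20 and Sox2, summed to 87.4 and 143 CPM in MK1 and to 6.35 and 10.2 CPM in MK2, with 2 of 5 below 1 CPM and Atoh1 at 0. The melanocyte list summed to 3.54 to 6.09 CPM with 4 of 7 below 1 CPM and Dct at 0, and the endothelial list, mostly Kdr, to 14.9 to 27.4 CPM with 2 of 4 below 1 CPM and Cdh5 at 0. These lists move with the line, and their part in the differences below was not tested.

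Among these 8 factors, 2 rose and 2 fell in MK2, and the other 4 did not pass the test. Zfp750 fell by 3.28 on the log2 scale, and Ovol2 fell by 0.72. Ovol1 and Grhl1 rose by 0.93 and 0.48. Calls were made with edgeR's quasi-likelihood test at an adjusted p of 0.05, with Benjamini-Hochberg adjustment over 12479 genes. Across all tested genes 54.6% were called, 25.9% higher and 28.6% lower in MK2, so 4 of 8 is close to the background and is no result about the factors as a group. The second test asked for changes beyond 2-fold and called 13.3% of all genes and 1 of the 8, Zfp750. The CPM of the lines did not overlap for 6 of the 8, beside 80.5% of all tested genes. All 8 passed the count filter, and each had 76 counts or more in every library, so no fold among them rests on a library at 0. With either MK1 culture left out, fewer genes were called across the whole series, so lost calls among the 8 are not read as a trait of these factors.

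**Figure D1:**
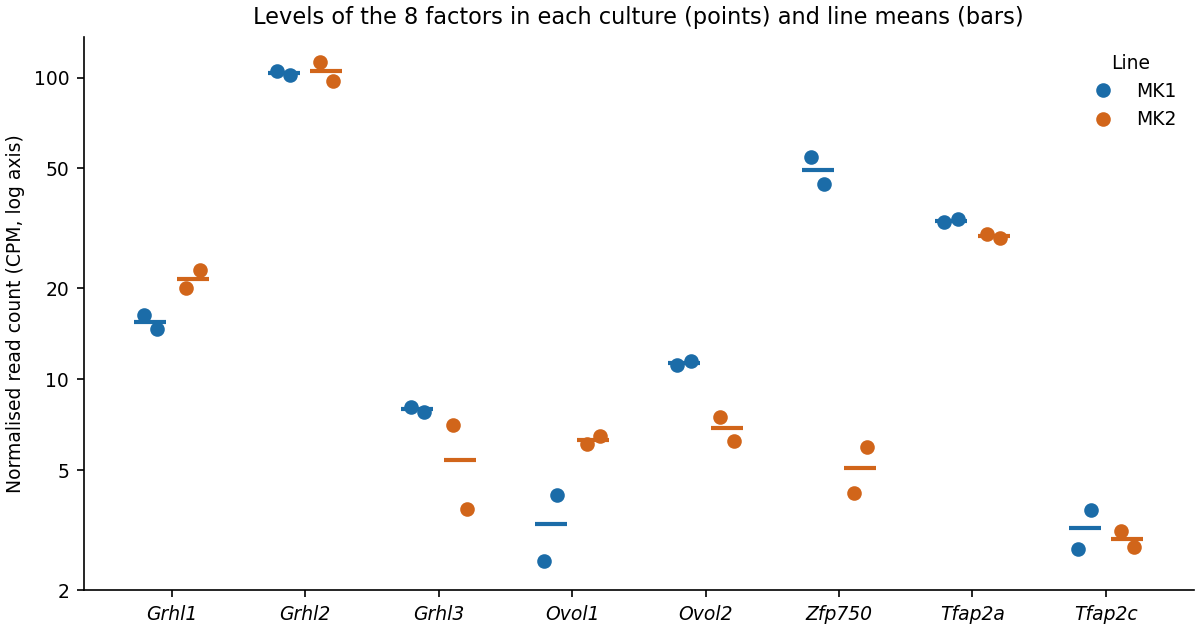
Normalised read counts (CPM, log axis) of the 8 factors in the 4 libraries, with MK1 in blue, MK2 in orange, a point for each culture and a bar for each line mean. Zfp750 stood at 44.4 and 54.5 CPM in MK1 and at 4.21 and 5.96 CPM in MK2, while the Grhl2 and Tfap2c points of the lines overlap. CPM are not divided by gene length, so heights are to be compared between lines within a gene.

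Promoter sequences were given in the RefSeq table (GRCm38.p6, the same assembly as mm10) for 4 of the 8 factors, Grhl1, Grhl3, Ovol2 and Tfap2a, as 6 windows of 300 bases that run from 250 bases before to 50 after an annotated start. Those of Grhl1 (chr12:24572037-24572336, plus strand) and Grhl3 (chr4:135573583-135573882, minus strand) are shown because these paralogs had estimates of opposite sign. Capitals mark letters that match the AP-2 motif GCCNNNGGC or the ZNF750 motif CCNNAGGC.
Grhl1: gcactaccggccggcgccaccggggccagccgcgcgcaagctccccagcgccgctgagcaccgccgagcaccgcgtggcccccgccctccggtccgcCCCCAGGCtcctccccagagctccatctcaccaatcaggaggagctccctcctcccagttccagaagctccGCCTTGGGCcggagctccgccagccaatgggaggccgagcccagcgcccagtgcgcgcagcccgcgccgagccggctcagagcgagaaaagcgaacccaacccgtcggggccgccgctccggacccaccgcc
Grhl3: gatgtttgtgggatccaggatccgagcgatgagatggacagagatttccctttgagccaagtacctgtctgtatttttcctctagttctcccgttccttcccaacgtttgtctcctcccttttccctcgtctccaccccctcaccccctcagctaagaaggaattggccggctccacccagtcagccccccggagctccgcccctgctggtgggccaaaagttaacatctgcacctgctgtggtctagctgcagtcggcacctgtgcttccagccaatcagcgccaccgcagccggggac
Both strands were searched for these 2 motifs, for the Grainyhead motif AACCGGTT and for the Ovo motif CCGTTA. The window of Grhl1 held 1 AP-2 match at bases 169 to 177 and 2 ZNF750 matches, at bases 98 to 105 and at bases 169 to 176, the last on the opposite strand and inside the AP-2 match. The window of Grhl3 held none of the 4 motifs. A second Grhl1 window held 1 ZNF750 match (bases 182 to 189), and the windows of Ovol2 and Tfap2a held none. Of all 32851 promoter windows, 16.6% held the AP-2 motif, 24.1% the ZNF750 motif, 2.76% the Ovo motif and 0.146% the Grainyhead motif. A match describes letters and is not evidence of binding.

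Grhl2, the Grainyhead-like factor of epithelial identity (chromosome 15, 37233036 to 37363568, plus strand, mm10), was the most abundant of the 8 per unit length in both lines. In MK1 it stood at 106 and 102 CPM, and in MK2 at 113 and 97.8 CPM. The MK1 values lie inside the MK2 range, so the lines overlap. Its log2 fold change was 0.02 with a standard error of 0.11 and was not called (adjusted p = 0.901 in edgeR's quasi-likelihood test). The 95% confidence interval ran from -0.25 to 0.29, so a change of 2-fold lay outside it in either direction. The sign turned with upper quartile scaling (-0.0395), without MK1 replicate 2 (-0.0070) and without MK2 replicate 1 (-0.0839).

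Grhl1, which activates desmosomal cadherin genes (chromosome 12, 24572287 to 24617391, plus strand), was higher in MK2. It stood at 16.4 and 14.6 CPM in MK1 and at 20.03 and 23.1 CPM in MK2. Both MK2 cultures were above both MK1 cultures. It rose by 0.48 ± 0.15 (SE) on the log2 scale, 1.39-fold (adjusted p = 0.0304, edgeR's quasi-likelihood test). The call ended without MK1 replicate 1 (adjusted p = 0.0928), without MK1 replicate 2 (adjusted p = 0.172) and without MK2 replicate 2 (adjusted p = 0.0831), with estimates of 0.56, 0.40 and 0.37.

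Grhl3, the barrier-forming paralog (chromosome 4, 135541888 to 135573620, minus strand), was uneven between the MK2 cultures. It stood at 8.13 and 7.82 CPM in MK1 and at 7.07 and 3.70 CPM in MK2. Both MK2 cultures were below both MK1 cultures, but the gap within MK2 (0.92 on the log2 scale) was larger than the difference of the lines. Its log2 fold change of -0.57 ± 0.30 (SE) was not called (adjusted p = 0.146, edgeR's quasi-likelihood test), and the 95% confidence interval ran from -1.28 to 0.14. MK2 replicate 2 decided the value. Without MK2 replicate 1 the log2 fold change was -1.1 and was called (adjusted p = 0.00443, edgeR), and without MK2 replicate 2 it was -0.17 (adjusted p = 0.509).

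Grhl2 led the Grainyhead-like family in both lines, and the family's summed level differed by less than the spread between cultures. Summed TPM (transcripts per 1e6, from the deposited exon lengths) was 61.2 and 57.2 in MK1 and 62.7 and 54.8 in MK2. Grhl2 made up 74.3% ± 0.70 of it in MK1 and 72.5% ± 1.43 in MK2 (SD, n = 2 cultures, as for every SD of a share). Grhl1 made up 16.03% and 14.99% in the MK1 cultures and 18.3% and 23.7% in MK2. Grhl3 made up 10.1% and 10.2% in MK1 and 8.20% and 4.82% in MK2. The ratio of Grhl1 to Grhl3 TPM was therefore 1.58 and 1.47 in MK1 and 2.23 and 4.91 in MK2.

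**Figure D2:**
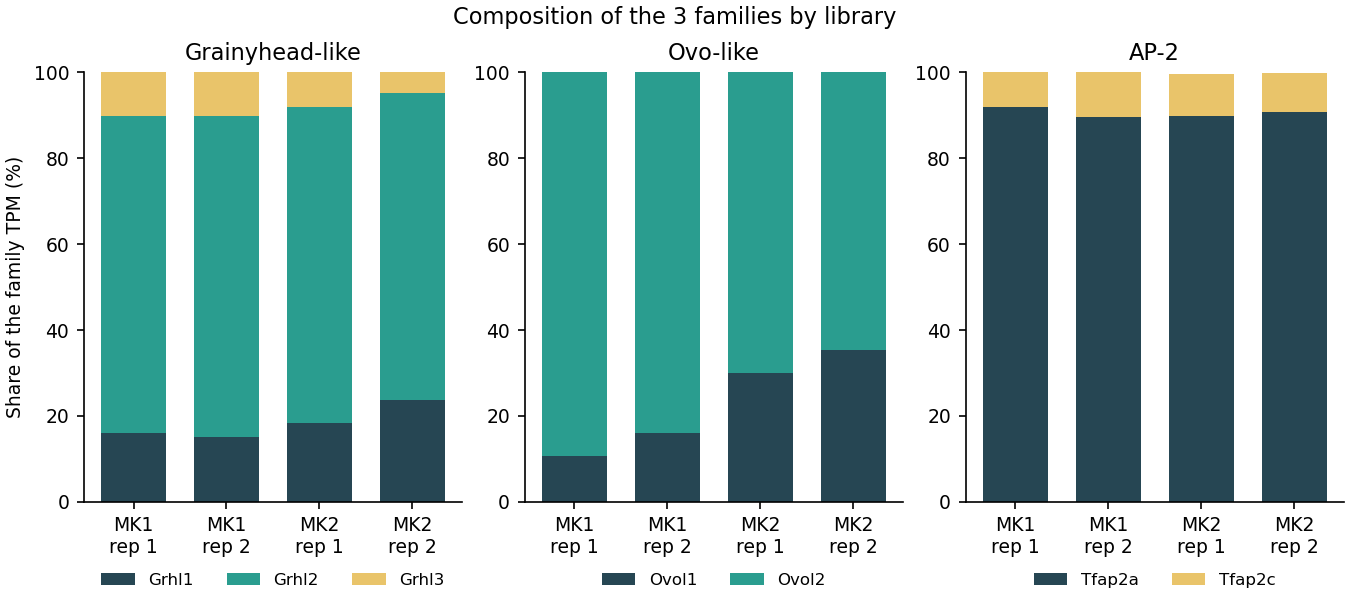
Share of each factor in the summed TPM of its family (%), 1 bar per library, for the Grainyhead-like, Ovo-like and AP-2 families. Ovol1 takes 10.6% and 16% of the Ovo-like TPM in MK1 and 30.1% and 35.5% in MK2, while the AP-2 bars are alike, with relatives under 0.5% not drawn.

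The Ovo-like factors moved in opposite directions. Ovol1, which limits progenitor growth as keratinocytes differentiate (chromosome 19, 5549137 to 5560575, minus strand), stood at 2.50 and 4.13 CPM in MK1 and at 6.12 and 6.49 CPM in MK2. The MK1 cultures differed from each other more than the MK2 cultures did, and the lines did not overlap. It rose by 0.93 ± 0.27 (SE) on the log2 scale, 1.91-fold (adjusted p = 0.0236, edgeR's quasi-likelihood test). MK1 replicate 1, with 76 counts, decided the call, since without it the log2 fold change was 0.61 (adjusted p = 0.134).

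Ovol2, which represses mesenchymal genes in epithelial cells (chromosome 2, 144305176 to 144332080, minus strand), was lower in MK2. It stood at 11.2 and 11.5 CPM in MK1 and at 7.51 and 6.24 CPM in MK2. The lines did not overlap, and the MK1 cultures were nearly equal. It fell by 0.72 ± 0.17 (SE) on the log2 scale, that is, it was 1.65-fold higher in MK1 (adjusted p = 0.0115, edgeR's quasi-likelihood test). The call ended without MK1 replicate 1 (adjusted p = 0.0699) and without MK1 replicate 2 (adjusted p = 0.0716), with estimates of -0.74 and -0.71.

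Ovol2 was the more abundant of the pair per unit length in every library, with 15.4 and 15.5 TPM in MK1 and 9.89 and 8.07 TPM in MK2. Ovol1 stood at 1.82 and 2.95 TPM in MK1 and at 4.26 and 4.43 TPM in MK2. The ratio of Ovol2 to Ovol1 TPM narrowed accordingly, from 8.46 and 5.25 in the MK1 cultures to 2.32 and 1.82 in the MK2 cultures. Summed TPM of the pair was 17.8 ± 0.82 in MK1 and 13.3 ± 1.17 in MK2 (SD). The related gene Ovol3 was not analysed here.

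Zfp750, the late-differentiation regulator (chromosome 11, 121510976 to 121519342, minus strand), had the largest difference of the 8. It had 1658 and 1192 counts in the MK1 libraries and 106 and 169 in MK2, or 54.5 and 44.4 CPM against 4.21 and 5.96 CPM. The lowest MK1 culture was several times above the highest MK2 culture. It fell by 3.28 ± 0.20 (SE) on the log2 scale and was 9.69-fold higher in MK1 (adjusted p = 6.29e-05 in edgeR's quasi-likelihood test, 95% confidence interval -3.76 to -2.79). Beyond 2-fold it was also called (adjusted p = 0.000166, edgeR's glmTreat). Under all 12 alternatives it was called lower, with estimates between -3.55 and -3.05. Its absolute change ranked at the 93.7th percentile of all tested genes.

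The fall changed its place among the 8 factors. Zfp750 ranked 2 of 8 by mean TPM in MK1, at 32.0 ± 5.14 TPM, behind Grhl2 at 44.0 ± 1.65 and ahead of Tfap2a at 21.5 ± 0.05 (SD). It ranked 7 of 8 in MK2, at 3.13 ± 0.72 TPM, next to Grhl3 at 3.89 ± 1.77, with which its cultures overlapped. In MK2 the order was Grhl2 (42.6 ± 4.90), Tfap2a (18.3 ± 0.70), Grhl1 (12.2 ± 1.07), Ovol2 (8.98 ± 1.29), Ovol1 (4.35 ± 0.12), Grhl3, Zfp750 and Tfap2c (1.93 ± 0.19). In MK1 the lower places were held by Ovol2 (15.5 ± 0.03), Grhl1 (9.19 ± 0.87), Grhl3 (6.005 ± 0.26), Ovol1 (2.39 ± 0.80) and Tfap2c (2.18 ± 0.43), the last 2 within each other's spread. Ovol1 and Grhl3 also overlapped in MK2. Zfp750 made up 25.9% and 22.1% of the summed TPM of the 8 factors in MK1 and 2.61% and 4.02% in MK2. Without it, the other 7 summed to 102 and 99.7 TPM in MK1 and to 97.6 and 86.8 TPM in MK2.

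Zfp750 lies on the opposite strand inside the body of Tbcd, a tubulin-folding cofactor (chromosome 11, 121451949 to 121617170), and reads were counted with no strand option. The exons of the genes shared 0 bases in the deposited annotation. Reads from Tbcd introns that lie over Zfp750 exons cannot be told apart by strand, and their part in the Zfp750 counts was not tested. Tbcd stood at 128 and 106 CPM in MK1 and at 126 and 147 CPM in MK2, with the lines overlapping. It was not called (log2 fold change 0.22 ± 0.14 SE, adjusted p = 0.211, edgeR's quasi-likelihood test), so the exon counts of the host gene showed no fall like that of Zfp750. They do not measure its intron reads. No exon of the other 7 factors shared a base with another gene of the deposited table. In GENCODE M21, which holds more genes, exons of the antisense genes Gm16136, 1700108N11Rik, Gm47061 and Gm26688 shared 169 bases with Grhl2, 56 with Ovol2, and 265 and 111 with Tfap2a. Ovol1 shared 690 bases with the pseudogene Gm31166 and 76 with a further antisense gene on the opposite strand. Reads in those bases cannot be told apart by strand.

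The AP-2 factors differed little. Tfap2a, the main AP-2 factor of ectoderm and skin (chromosome 13, 40715675 to 40733823, minus strand), stood at 33.2 and 34.0 CPM in MK1 and at 30.4 and 29.3 CPM in MK2. Both MK2 cultures were slightly below both MK1 cultures. The log2 fold change of -0.17 ± 0.11 (SE) was not called (adjusted p = 0.222, edgeR's quasi-likelihood test), and the 95% confidence interval of -0.43 to 0.09 held no 2-fold change. Tfap2c, its paralog in keratinocyte commitment (chromosome 2, 172549593 to 172558621, plus strand), stood at 2.73 and 3.69 CPM in MK1 and at 3.14 and 2.79 CPM in MK2. The lines overlapped, and the log2 fold change of -0.11 was not called (adjusted p = 0.715, edgeR's quasi-likelihood test; 95% confidence interval -0.69 to 0.47). Its sign turned without MK1 replicate 2 (0.11).

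Tfap2a made up 90.8% ± 1.58 of the AP-2 TPM in MK1 and 90.2% ± 0.67 in MK2 (SD), so the composition of the family differed by less than the spread between cultures. Tfap2b, a relative best known from kidney and neural crest, had 1 and 0 counts in MK1 and 0 and 2 in MK2. Tfap2d had 0 counts in all 4 libraries, where 3 counts would be 0.0987 to 0.119 CPM. Tfap2e had 2 counts, both in MK2 replicate 1.

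**Figure D3:**
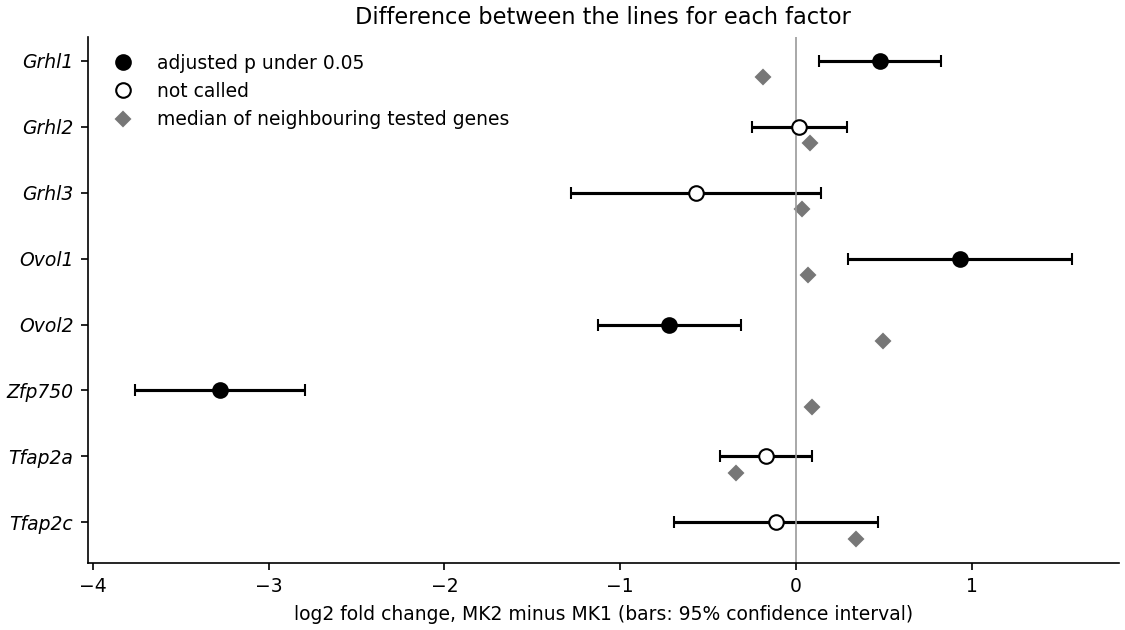
Log2 fold change (MK2 minus MK1) of each factor with its 95% confidence interval, filled where the adjusted p was under 0.05, and the median of neighbouring tested genes as a diamond. Zfp750 at -3.28 stands far below its neighbours' median of 0.09, and Ovol2 at -0.72 lies opposite to its neighbours' 0.50.

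The median log2 fold change of all tested genes on a factor's chromosome ran from -0.41 (chromosome 13) to 0.37 (chromosome 4), so each factor was set beside the 25 tested genes on either side of it. The neighbours of Zfp750, which lies near a chromosome end and had 27 of them, had a median log2 fold change of 0.09, and none of the 27 was as far below 0. Around Ovol2 the median of 50 neighbours was 0.50, 28 were called higher and 4 lower, and 5 lay below Ovol2. Around Ovol1 the median was 0.07, and 3 of 50 lay above it. Those around Grhl1 had a median of -0.19 and 9 of 50 lay above it. These comparisons are a description with no test. For Tfap2a the neighbours' median was -0.34, below its own -0.17, and for Tfap2c it was 0.34. The medians around Grhl2 and Grhl3 were 0.08 and 0.03.

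Genes of the pathways were taken from 6 lists chosen from general knowledge of these factors. The lists overlap, and Tgm1, Elf3 and Cebpa were counted in each list that holds them. Among 18 tested genes of 20 listed as Grainyhead targets of junctions and barrier, 6 rose and 9 fell, 83.3% called beside 54.6% of all genes, with a median log2 fold change of -0.55 beside -0.01 over all genes. Dsp, which encodes desmoplakin and was the most abundant of them, fell from 1369 ± 104 to 780 ± 129 CPM (SD over 2 cultures per line, here and below). Elf3, an epithelial ETS factor, fell from 24.1 ± 0.16 to 1.60 ± 0.63 CPM, and the protease Prss8 from 41.5 ± 0.09 to 12.2 ± 4.55 CPM. Prom2, a protein of membrane protrusions, fell from 6.95 ± 3.03 to 0.201 ± 0.115 CPM, but passed the filter through MK1 alone, with 3 and 8 counts in MK2, and so could only be found lower. The claudin Cldn4 fell from 827 and 588 CPM in the MK1 cultures to 58.9 and 186 CPM in MK2, by 2.53 on the log2 scale. Its log2 fold change was -1.92 without MK2 replicate 1 and -3.58 without MK2 replicate 2. Cdh1, Spint1, Spint2, St14, Esrp1, Arhgef19, Rab25 and the Dsg1 genes were picked after their values were seen. Cdh1 fell from 808 ± 124 to 367 ± 37.1 CPM, and Spint1, Spint2 and St14 were also called lower. In the opposite direction Esrp1, the epithelial splicing regulator, rose from 82.8 ± 3.86 to 162 ± 4.03 CPM. Arhgef19, which Grhl3 regulates in wound closure, rose from 10.6 ± 0.02 to 17.9 ± 0.61 CPM, and Mal2, a protein of apical transport, rose by 1.34 on the log2 scale. Rab25, an epithelial trafficking GTPase, did not pass at 120 ± 4.502 and 114 ± 0.74 CPM (adjusted p = 0.598, edgeR's quasi-likelihood test). Dsg1a and Dsg1b, desmosomal cadherins known as Grhl1 targets, were called higher but passed the filter through MK2 alone, with 3 and 5 counts in MK1. Dsg1a was 13.9-fold higher in MK2 (95% counting interval 4.42 to 70.3, which covers counting error only).

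Among 10 tested genes of 13 listed as repressed by Ovo-like factors, 3 rose and 3 fell, 60% called beside 54.6% of all genes, which is near the background, with a median of -0.04. The mesenchymal regulator Twist1 fell from 36.3 ± 5.98 to 1.22 ± 0.02 CPM. Its relative Twist2 went from 62 counts in MK1 to 0 in MK2, at least 19.3-fold lower against a floor of 3 counts over both libraries. Zeb1 fell from 3.37 ± 0.08 to 0.130 ± 0.0155 CPM. Twist2 and Zeb1 passed the count filter through MK1 alone, and so could only be found lower. Fn1, which encodes fibronectin, rose from 45.7 ± 12.6 to 182 ± 13.4 CPM, and Snai2, a repressor of differentiation in basal cells, from 62.9 ± 1.12 to 83.3 ± 1.11 CPM. Snai2 was no longer called when either MK1 culture was left out (adjusted p = 0.103 and 0.0777). Myc, a growth regulator, rose by 0.31, and lost its call with MK1 replicate 1, MK1 replicate 2 or MK2 replicate 2 left out (adjusted p = 0.175, 0.199 and 0.112) and with upper quartile scaling (adjusted p = 0.0826). With either MK1 culture left out, fewer genes were called across the whole series as well, so lost calls are not read as a trait of the list. Sparc, a matrix protein and the most abundant of the list, did not pass at 1232 ± 95.2 and 1301 ± 26.8 CPM (adjusted p = 0.560, edgeR's quasi-likelihood test).

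**Figure D4:**
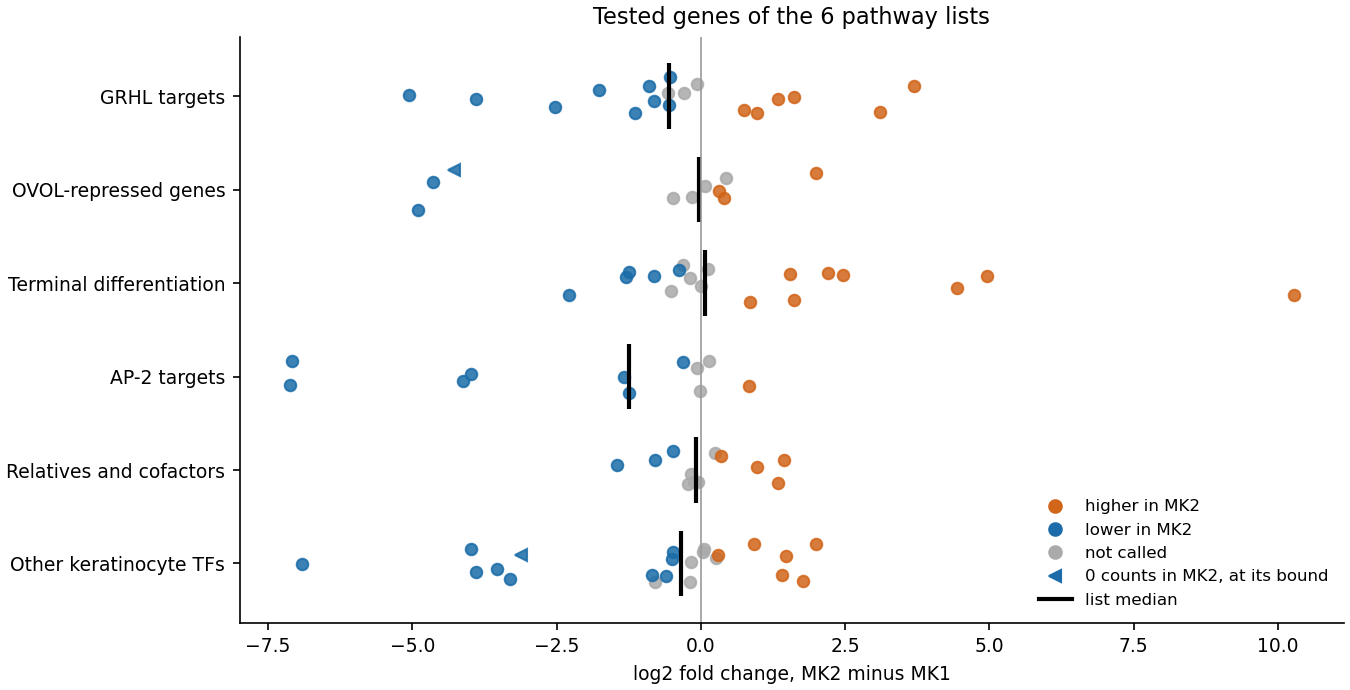
Log2 fold change (MK2 minus MK1) of each tested gene in the 6 pathway lists, 1 point per gene coloured by its call, with a black line at each list's median and triangles for Twist2 and Satb1, which had 0 counts in MK2 and are drawn at their bound. Medians lie at -0.55 for Grainyhead targets and -1.24 for AP-2 targets, and the other 4 between -0.34 and 0.06.

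Terminal differentiation genes linked to Zfp750, Klf4 and Grhl3 moved in both directions. Of 18 tested genes of 24, 8 rose and 5 fell, 72.2% called beside 54.6% of all genes, with a median of 0.06. Of those that rose, Lor had 0 and 2 counts in MK1, Krtdap 3 and 14, and Asprv1 5 and 10. These genes reached the filter through MK2 and could only be found higher. The lipid transporter Abca12 and the envelope protein gene Ivl rose by 4.96 and 2.46 on the log2 scale. Krtdap, a differentiation-associated secreted protein, rose by 10.3, and by 9.47 without MK1 replicate 1 and 11.8 without MK1 replicate 2. Asprv1 and Tgm1, an epidermal protease and transglutaminase, rose by 2.205 and 1.61, and by 2.87 and 2.36 without MK1 replicate 2. The last 2 calls ended without MK1 replicate 1 (adjusted p = 0.0614 and 0.0949). Sprr1a, an envelope precursor, fell by 2.28, with 175 and 35 counts in MK1 and 16 and 23 in MK2, and lost its call with MK1 replicate 1 or MK2 replicate 1 left out (adjusted p = 0.214 and 0.0583). Ppl, which encodes periplakin and was the most abundant member, fell from 859 ± 122 to 490 ± 140 CPM, but not past the threshold once MK1 replicate 1 was left out (adjusted p = 0.116). Chosen after their values were seen, Cers3, a synthase of barrier ceramides, fell from 138 ± 3.40 to 58.5 ± 1.60 CPM, and Hopx, a homeodomain protein of differentiating cells, from 113 ± 7.85 to 46.3 ± 3.84 CPM. Krt10 and Casp14, chosen in the same way, were called higher at low levels. Krt10 rose from 2.24 ± 0.05 to 4.07 ± 0.71 CPM, and Casp14 from 1.56 ± 0.31 to 4.54 ± 1.26 CPM. Calls lost without MK1 replicate 1 are not read as a trait of this list, since fewer genes were then called across the whole series. Krt1 had 0 counts in all 4 libraries.

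Of 11 tested AP-2 targets of 12 listed, 1 rose and 7 fell, 72.7% called beside 54.6% of all genes. Their median log2 fold change was -1.24 beside -0.01 over all genes. Of those that fell, Esr1, with 12 and 11 counts in MK1 and 1 and 0 in MK2, passed the filter through MK1 alone and could only be found lower. The basal keratin Krt14, the most abundant of them, did not pass (adjusted p = 0.681, edgeR's quasi-likelihood test). The simple keratin Krt8 fell by 7.12 on the log2 scale, and its partner Krt18 fell by 7.09, and both also stand in the simple epithelium list above, whose part in this count was not tested. Erbb3, a receptor of the epidermal growth factor receptor family, fell from 46.6 ± 2.17 to 19.8 ± 4.44 CPM. Cdkn1a, a cell-cycle inhibitor, fell by 1.33, and Itga6, the basal integrin, rose by 0.83. Tfap2a and Tfap2c themselves were not called.

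Among relatives and cofactors 12 of 18 were tested, and 4 rose and 3 fell, 58.3% called beside 54.6% of all genes, which is near the background, with a median of -0.08. Kctd15, a repressor of AP-2 activity, rose from 18.1 ± 1.03 to 49.3 ± 3.89 CPM, whereas its relative Kctd1, also an AP-2 repressor, fell by 0.79 on the log2 scale. Cited2, an AP-2 coactivator, rose from 17.0 ± 1.01 to 42.6 ± 16.4 CPM, and Lmo4, a LIM-domain partner of Grhl3 in the epidermis, from 29.9 ± 0.82 to 58.3 ± 7.12 CPM. Tfcp2l1, of the Grainyhead superfamily, fell from 3.43 ± 0.57 to 1.25 ± 0.37 CPM, and lost its call with MK1 replicate 2 left out (adjusted p = 0.0600). Without that culture fewer genes were called across the whole series too. Of the 4 corepressors that ZNF750 is known to recruit, Ctbp1 rose by 0.34 on the log2 scale. It was no longer called when either MK1 culture was left out (adjusted p = 0.123 and 0.145). Kdm1a, Rcor1 and Ctbp2 did not pass (adjusted p = 0.0892, 0.547 and 0.130, edgeR's quasi-likelihood test). The deacetylase Hdac1 fell by 0.48, which was not called without MK1 replicate 2 (adjusted p = 0.132).

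The last list held 24 other transcriptional regulators of keratinocytes, with the receptor Notch1 and the chromatin factors Smarca4 and Kmt2d among them. Of 22 tested, 6 rose and 10 fell. That is 72.7% called beside 54.6% of all genes, with a median log2 fold change of -0.34. Ehf and Satb1 among those that fell, and Dlx3 among those that rose, had under 10 counts in each library of the other line. They could be found in that direction only. Prdm1 had 3 and 34 counts in MK2, so it reached the filter through MK1 and could only be found lower. Cebpa, a differentiation factor, fell from 10.3 ± 0.95 to 0.646 ± 0.183 CPM. Prdm1, a transcriptional repressor, fell from 6.74 ± 1.21 to 0.659 ± 0.764 CPM, with log2 fold changes of -2.48 without MK2 replicate 1 and -5.77 without MK2 replicate 2. The ETS factor Ehf had 295 counts in MK1 and 2 in MK2, 138-fold lower (95% counting interval 37.8 to 1140). Gata3, a factor of epidermal lineage, rose from 2.14 ± 0.60 to 8.58 ± 1.63 CPM. Chosen after its value was seen, Klf4, which ZNF750 activates in human cells, rose from 78.9 ± 8.28 to 150 ± 13.1 CPM. Notch1, a receptor of differentiating keratinocytes and the most abundant of the list, fell by 0.85, but was not called with MK1 replicate 1 left out (adjusted p = 0.126). Fewer genes were called across the whole series when either MK1 culture was left out, so lost calls are not read as a trait of this list.

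Patterns over the 4 libraries were compared between each factor and 88 tested genes of the lists, as the Euclidean distance of log2 CPM after each gene's own mean was subtracted. Tfap2a lay nearest to Rbpj and Tfcp2 (distances 0.06 and 0.07), and Grhl2 to Ubp1 and Krt14 (0.10 and 0.11), all genes that were not called. Ovol2 lay nearest to Dsp and Hes1 (0.18 and 0.20), and Grhl1 to Myc and Smarca4 (0.19 and 0.20). Grhl3 lay nearest to Maf (0.27), which was also low in MK2 replicate 2, at 5.86 CPM against 12.2 CPM in MK2 replicate 1, and next to Ppl (0.35). Tfap2c lay nearest to Sbsn and Tfcp2 (0.19 and 0.23). Ovol1 and Zfp750 had no list gene as close, with Mal2 and Lmo4 at 0.44 and 0.52 from Ovol1. Cebpa lay at 0.60 from Zfp750. Satb1 was listed nearer, but it had 0 counts in MK2, where its pattern is set by the prior count, so its distance is no measure of likeness. With 2 lines and 2 cultures of each, such distances mostly measure a like difference between the lines.

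**Figure D5:**
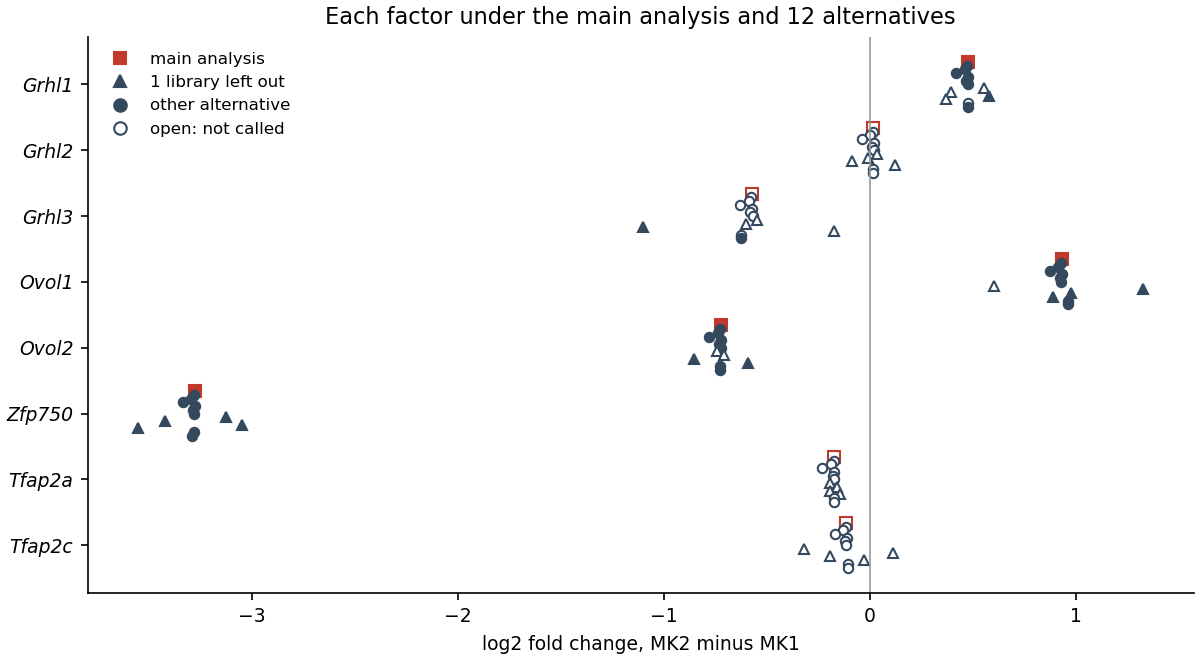
Log2 fold change (MK2 minus MK1) of each factor in the main analysis (red squares) and under 12 alternatives (triangles where 1 library was left out, circles otherwise), open where not called. Zfp750 stays between -3.55 and -3.05 and filled throughout, while Grhl3 ranges from -1.1 to -0.17 and Grhl1, Ovol1 and Ovol2 each turn open in at least 1 alternative.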

How the data were processed

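Per the file headers, the deposited raw read counts per gene were made by the authors with featureCounts 1.4.6-p4 on TopHat alignments, over exons of the UCSC mm10 annotation, with no option for strand, read pairs or multiple alignments. The submitters' processing notes name DESeq2 1.10.1, Bowtie2 2.2.6, TopHat2 2.0.13 and another featureCounts version, 1.5.0. The other column used was the deposited exon length. The header calls the second line MKU where the columns say MK2. No count column lacked a sample (0 columns).

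Counts were filtered (filterByExpr, minimum count 10), scaled by TMM and tested with the quasi-likelihood test of edgeR 4.0.16 in R 4.3.3, Benjamini-Hochberg adjusted at 0.05, two-sided, with glmTreat for changes beyond 2-fold. Standard errors follow from the F statistic. TPM used exon lengths. The procedure was also run on simulated data. That run planted far fewer changes than were called here, only in well-counted genes, so nothing is concluded from it. Of list symbols, Kmt2d was matched as Mll2 and Ovol3 was not matched. Named list genes were up to 6 called genes at 1 CPM or more, by size of change, and the most abundant. One gene that this rule names is not reported here. Alternatives covered scaling, filters, DESeq2 1.42.0, each library left out and the replicate number as a block. The factors and lists were chosen with earlier results of these data known.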

Additional observations from a re-analysis of the deposited data

How the results depend on the processing

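Of 12 alternatives for each factor, Zfp750 and Tfap2a kept direction and side of the threshold in all. Leaving out 1 library in turn, where the lone sample of a line is assumed to vary like the other line, gave log2 fold changes of 0.37 to 0.58 for Grhl1, -0.0839 to 0.121 for Grhl2, -1.1 to -0.17 for Grhl3, 0.61 to 1.33 for Ovol1, -0.85 to -0.59 for Ovol2 and -0.32 to 0.11 for Tfap2c. Upper quartile scaling turned Grhl2 to -0.0395. The factors called higher then numbered 0 to 2 and those lower 1 to 3, all called genes 3716 to 6847, and genes beyond 2-fold 985 to 1717 (1099 in DESeq2). List counts ran from 1 to 3 higher for Ovo-repressed genes, 5 to 8 higher and 2 to 6 lower for terminal differentiation, 1 to 3 lower for cofactors, and 3 to 5 higher and 5 to 12 lower for other transcription factors. Uncalled genes that turned sign were Sparc (-0.0017 to 0.156 with 1 library left out), Krt14 (-0.201 to 0.0693) and Ubp1 (-0.115 to 0.0275). The cause of these shifts was not tested.

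With the replicate number as a block, 5908 genes were called, 1 factor (Ovol1) was called higher and 2 lower, and Grhl1 was not called (0.475, adjusted p = 0.0675, edgeR), nor were Myc, Ctbp1 and Smarca4 (adjusted p = 0.0771, 0.0506 and 0.0881). Same-numbered cultures deviated with a correlation of -0.151 and no label pairs them. A crossed replicate block, added after the data were seen, called 7454 genes, and Grhl3 then passed (-0.625). Depth limits the folds of genes with few counts in 1 line, such as Dsg1a (3 in MK1) and Ehf (2 in MK2), whose counting intervals are wide.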
